A study of Caenorhabditis elegans with 2 samples.

Results

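Binding of ZTF-11 was examined at 10 genes that act early in the making of neurons in Caenorhabditis elegans: the basic helix-loop-helix (bHLH) genes lin-32, hlh-2, hlh-3, hlh-4, hlh-14, cnd-1 and ngn-1, and the genes ham-1, pig-1 and ces-1, which act in unequal cell divisions. These are 10 of 19973 annotated protein-coding genes, taken as a fixed list of names that was chosen with earlier results of these data known. Values of the 10 set beside those of all coding genes therefore do not show enrichment. A region was given to a gene where its summit, the point of strongest enrichment, lay within 5000 bp of the gene's annotated 5' end or inside the gene. The data are chromatin immunoprecipitation with sequencing (ChIP-seq) of 2 biological replicates, which form the only group. Both came from whole hermaphrodite L1 larvae of strain OP511, collected 6 h after release from starvation-synchronized L1. The strain carries unc-119(tm4063) on chromosome III and the insertion wgIs511, which expresses ZTF-11 with a C-terminal GFP-FLAG tag, and the antibody was against GFP. The fusion comes from a transgene and the chromatin from all tissues of the larva, so neurons and other cells cannot be told apart. With a single group, no comparison between conditions and no p-value is given.

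ZTF-11 is a zinc-finger protein of the MYT1 family, whose members are known as repressors of transcription that promote neuronal fate. Proneural bHLH proteins such as LIN-32 pair with the common partner HLH-2 and bind E-box sequences to start neuronal programmes. In unequal divisions of neuroblasts, the kinase PIG-1 and the factors HAM-1 and CES-1 influence the size and fate of the daughters, including whether the smaller one dies.

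ZTF-11 peaks of the authors' reproducible list were found at 3 of the 10 genes: lin-32 had 2 and pig-1 and hlh-14 had 1 each. That list holds the 1875 regions kept by the irreproducible discovery rate (IDR), a measure of how well ranks match between replicates. By the same rule 19.2% of all coding genes had an IDR peak (3837 of 19973). Within 1000 bp of the 5' end, lin-32 and pig-1 had a summit, 2 of 10 genes, against 8.09% of all coding genes (1615 of 19973). The 95% interval of the share for 10 genes ran from 2.52 to 55.6%, which holds the value of all genes. In searched length, there were 4 IDR summits in 108 kb at the 10 genes, or 3.71 per 100 kb, and 1.87 per 100 kb in the genome. These densities are not like for like, since the first covers only sequence around gene starts and the second the whole genome. IDR summits lay a median of 444 bp from the nearest coding 5' end.

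The sequences 50 bp to each side of the 4 IDR summits found at these genes are given here. Each is on the minus strand, the strand of its gene, on ce11 from the RefSeq genome, and is read 5' to 3'. They are shorter than the peaks. For the lin-32 peak 620 bp downstream, the replicate 1 summit lay 68 bp from the pooled one, outside the window. Capitals mark matches on either strand to 6 motifs. These are AAGTT, the core known for MYT1 proteins, CANNTG, the E-box of bHLH proteins, the repeat written GAGAGA, the word CTGCGTCT, the GC-rich word GGCGGG, and the CHR element of cell cycle genes, written TTTGAA or with a C as TTCGAA. The windows are chrX:2229452-2229552 and chrX:2230184-2230284 for lin-32, chrII:5736538-5736638 for hlh-14 and chrIV:519576-519676 for pig-1.
lin-32, 620 bp downstream: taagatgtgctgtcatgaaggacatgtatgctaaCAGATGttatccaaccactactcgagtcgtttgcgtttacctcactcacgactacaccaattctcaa
lin-32, 112 bp upstream: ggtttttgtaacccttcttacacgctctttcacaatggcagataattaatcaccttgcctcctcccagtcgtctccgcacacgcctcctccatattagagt
hlh-14, 2307 bp downstream: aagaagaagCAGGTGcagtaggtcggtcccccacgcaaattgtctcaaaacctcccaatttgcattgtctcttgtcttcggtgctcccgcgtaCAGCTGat
pig-1, 169 bp upstream: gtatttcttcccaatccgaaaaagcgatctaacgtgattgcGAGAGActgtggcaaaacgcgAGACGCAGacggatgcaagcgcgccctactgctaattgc

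The 4 windows shared no motif. AAGTT was in none of them, and in 13.2% of all 1875 IDR windows and 31.7% of 11250 background windows of the same length (pooled regions with a rank beyond 10 times the number of IDR peaks). CANNTG was in 2 windows, once in that of lin-32 inside the gene and in 2 places in that of hlh-14; it is a short motif, found in 41.2% of IDR windows and 35.3% of background windows. The pig-1 window alone held GAGAGA (23.8% of IDR windows, 5.72% of background windows) and CTGCGTCT, written there on the other strand (8.75% of IDR windows, 0.667% of background windows). None held GGCGGG (7.73% and 2.34%) or the CHR element (21.8% and 29.2%). G and C made up 42.6% and 47.5% of the lin-32 windows and 51.5% of each of the others, against 48.9% ± 7.87 (SD over 1875 windows) in IDR windows and 38.2% ± 9.13 (SD over 11250 windows) in background windows. A match describes the letters in a window and does not show a binding site.

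lin-32 encodes a bHLH protein of the Atonal family and is a proneural gene for touch receptor and other sensory neurons. It lies on chromosome X from 2229055 to 2230122 on the minus strand and is 1068 bp long (WBGene00003018). Its stronger peak covered 2229320 to 2229683, and the summit was intronic, 620 bp inside the gene. The deposited signal, read here only within a list, was 137 in the pooled list (rank 666), 82.0 in replicate 1 (rank 735) and 51.7 in replicate 2 (rank 649). The replicate 1 summit lay 68 bp farther downstream, while the replicate 2 summit was 1 bp away. This peak was stronger than 64.5% of the IDR list.

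The weaker lin-32 peak lay 112 bp upstream of the 5' end, in intergenic sequence from 2230052 to 2230415. It had a pooled signal of 88.6 (rank 1211), with 51.4 in replicate 1 (rank 1421) and 36.4 in replicate 2 (rank 1115). The 2 summits were 732 bp apart, on either side of the gene's start, and the ranks of both replicates placed the intron peak above the upstream peak. Having 2 or more IDR summits within 1000 bp of the 5' end was seen for 0.340% of coding genes (68 of 19973), and by the wider rule for 3.55% (709 of 19973).

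More regions surrounded lin-32 outside the IDR list, and 4 of 6 were matched within 100 bp in both replicates. The strongest, 3091 bp downstream, ranked 2089 in the pooled list with a signal of 61.3, just below the lowest IDR signal of 66.2. Its replicate ranks were 2636 and 4945. A replicate 2 region of rank 2581, with its summit 3230 bp downstream, overlapped it too, but that summit was over 100 bp away. The non-coding RNA gene T14F9.13 started 44 bp from the pooled summit. The next lay 1991 bp upstream (pooled rank 2350, replicate ranks 3007 and 2282), with the start of T14F9.8, another non-coding RNA gene, 316 bp away. A region 4007 bp upstream (rank 2576) was nearer to the coding gene T14F9.2, which starts 195 bp away. A further one lay 3823 bp downstream in an intron of hex-1 (rank 7688). The remaining regions, 1338 bp downstream (rank 4062) and 1264 bp upstream (rank 11268), were not matched in both replicates.

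pig-1 encodes a kinase related to mammalian MELK, needed in several neuroblast lineages for daughters of unequal size. The gene runs from 506731 to 519457 on the minus strand of chromosome IV (WBGene00021012) and is the longest of the 10, with 12727 bp. The IDR peak, from 519444 to 519807, had its summit in intergenic sequence 169 bp upstream of the 5' end. Its pooled signal was 109 (rank 913), with 57.7 in replicate 1 (rank 1195) and 45.9 in replicate 2 (rank 771). The replicate summits were 2 and 4 bp from the pooled one. An intronic region 3663 bp downstream was matched in both replicates outside the IDR list (pooled rank 3098, signal 48.5, replicate ranks 4006 and 5530). No region of any list lay in the part of the gene more than 4784 bp from the 5' end.

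hlh-14 encodes a bHLH protein of the Achaete-Scute family that acts in neuroblasts such as the one giving rise to PVQ, HSN and PHB neurons. It runs from 5737785 to 5738895 on the minus strand of chromosome II (WBGene00001958). Its IDR peak, from 5736406 to 5736769, was not at the start of the gene: the summit lay 2307 bp downstream of the 5' end and 1197 bp past the 3' end. The summit fell in an exon of the non-coding RNA gene C18A3.22, 121 bp from that gene's 5' end, though hlh-14 had the nearest coding 5' end. The pooled signal was 86.8 (rank 1252), with 45.4 in replicate 1 (rank 1698) and 44.1 in replicate 2 (rank 815). Close to its own start, 140 bp downstream in the coding exon, the pooled list had a region at rank 9447 with a match in replicate 2 (rank 4834) and none in replicate 1.

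Each of the 4 IDR peaks was matched in both replicate lists, as were 95.1% of all IDR peaks (1783 of 1875), and each ranked higher in replicate 2. The IDR list was made from these ranks, so the match is not independent of it. The order of the peaks was not the same in the replicates, since the weaker lin-32 peak stood above that of hlh-14 in replicate 1 and below it in replicate 2. The other 7 genes had no IDR peak, and 3 of them had no region that both replicates matched.

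**Figure D1:**
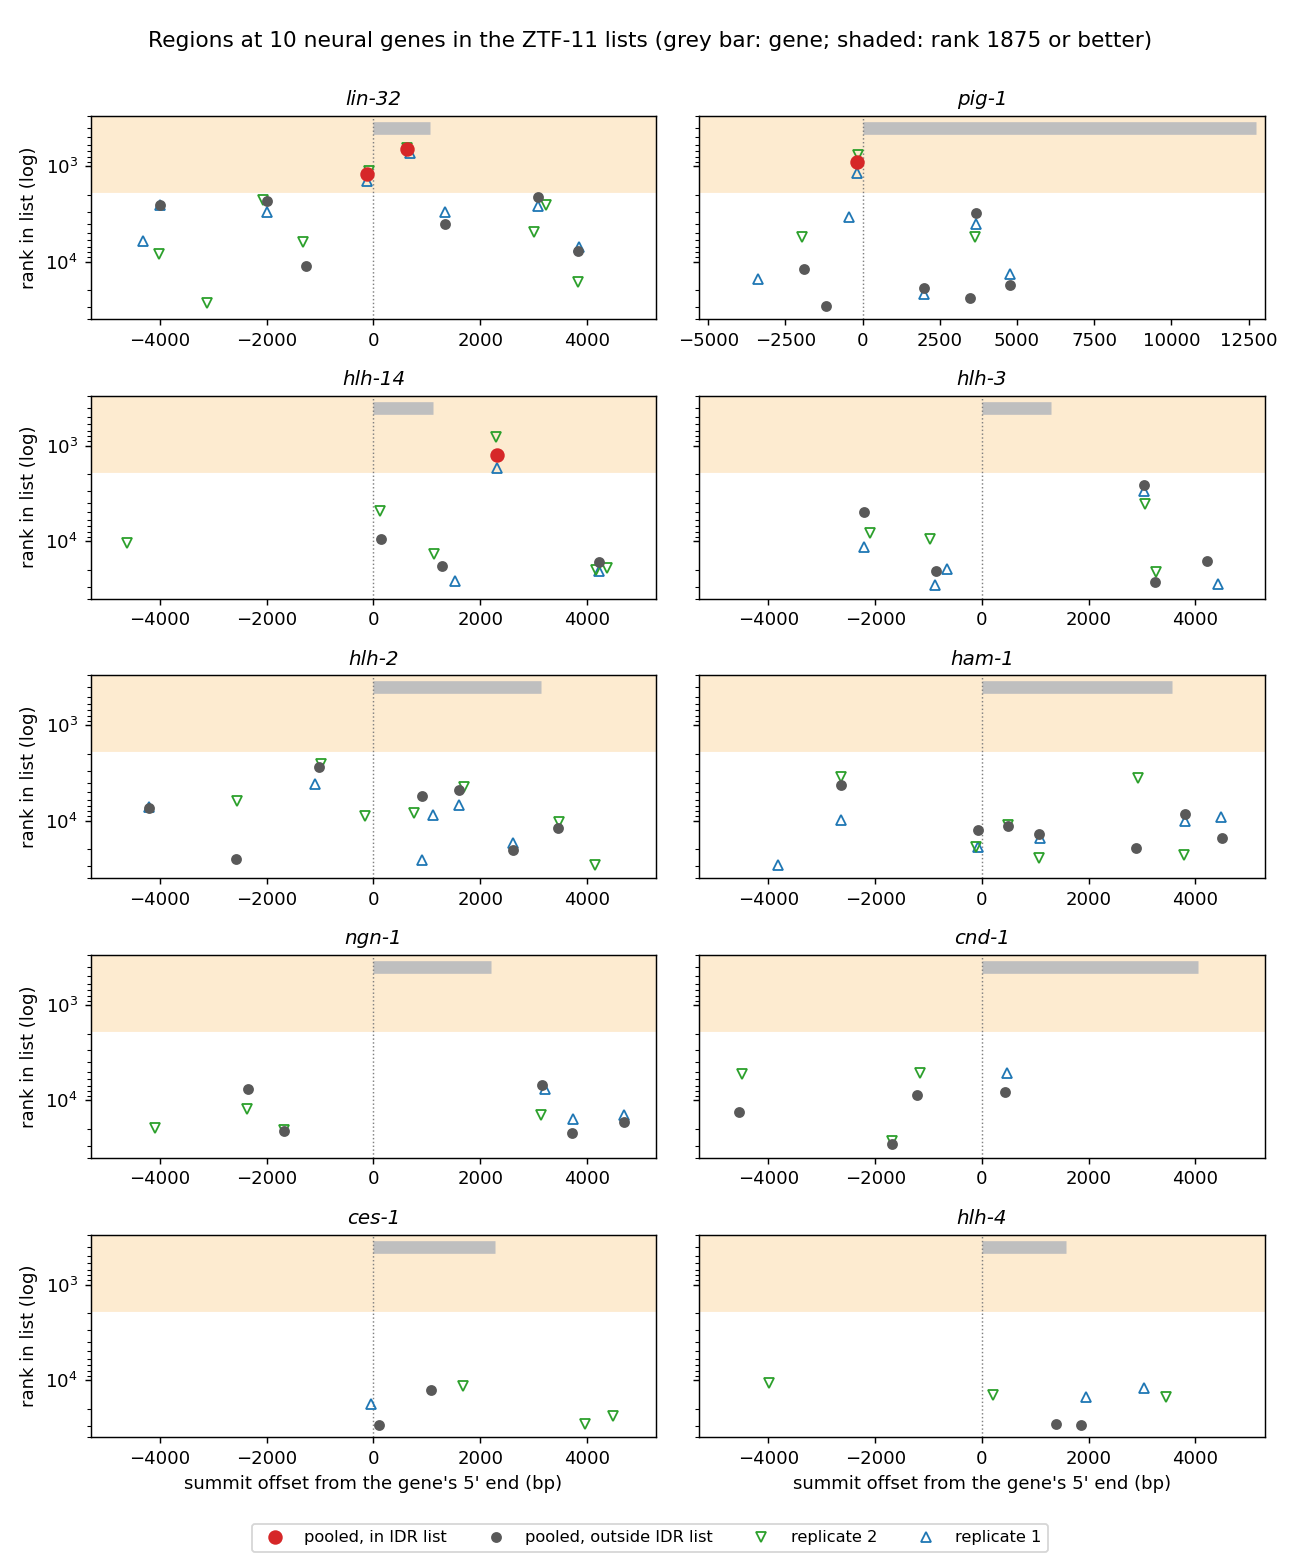
Summit offset from each gene's 5' end in bp (x axis, negative upstream) against rank in the list (log y axis, strongest at the top) for every region at the 10 genes; red and grey circles are pooled regions in and outside the IDR list, triangles the replicates, and the grey bar is the gene. Red circles, inside the shaded ranks of 1875 or better, appear at lin-32 (2), pig-1 (1) and hlh-14 (1).

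Among the other Achaete-Scute family genes, hlh-3 came closest to the IDR list by pooled rank. hlh-4 was the farthest of all 10 genes by pooled rank, while ces-1 was farther in both replicates and ngn-1 in replicate 2. HLH-3 acts in the differentiation of HSN neurons, and its gene runs from 9086608 to 9087908 on chromosome II. The strongest hlh-3 region, 3036 bp downstream of the 5' end and 1736 bp past the 3' end, had a pooled signal of 53.4 (rank 2593), with 33.1 in replicate 1 (rank 2974) and 19.3 in replicate 2 (rank 4091). The non-coding RNA gene C07H4.4 started 80 bp from the summit, which was inside an exon of another, C07H4.3. Upstream of hlh-3 the strongest region (rank 4909, 2214 bp away) had no summit within 100 bp in replicate 2. A replicate 2 region overlapped it, with its summit 2098 bp upstream (rank 8184). The coding gene sysm-1 was nearer to the pooled summit than hlh-3, and the non-coding RNA gene T24B8.11 started 120 bp from it. hlh-4, which acts in ADL sensory neurons, lies on chromosome III from 9737472 to 9739054. It had 2 pooled regions, the stronger at rank 28631 (signal 21.2) near the end of the list, and neither was matched in both replicates. In the replicate lists the hlh-4 regions began at ranks 12223 and 10855.

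hlh-2 encodes the E protein that pairs with the proneural bHLH proteins. It had 7 pooled regions and no IDR peak, on chromosome I from 7190788 to 7193920. The strongest lay 1012 bp upstream of the 5' end in intergenic sequence, with a pooled signal of 51.8 (rank 2737), 28.9 in replicate 1 (rank 4147) and 23.1 in replicate 2 (rank 2575). The 101-bp window at this summit held CTGCGTCT and none of the other motifs. It was the only hlh-2 region matched within 100 bp in both replicates. Regions inside the gene, 1596 bp downstream in an intron (rank 4809) and 916 bp downstream in a coding exon (rank 5507), were matched in replicate 1 only. Replicate 2 regions overlapped both, but their summits, 1705 and 761 bp downstream (ranks 4411 and 8346), were over 100 bp away.

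For the NeuroD homolog cnd-1 and the neurogenin homolog ngn-1 the lists held weak regions. At cnd-1, on chromosome III from 5240591 to 5244639, the strongest pooled region lay 428 bp downstream in the 5' UTR with a signal of 33.9 (rank 8097). Replicate 1 had a single region at cnd-1, matched to that one at rank 5225, while the 3 regions of replicate 2 lay elsewhere, the strongest 1157 bp upstream (rank 5184). So no cnd-1 region was matched in both, and the best ranks of the replicates differed little although they came from different places. At ngn-1, on chromosome IV from 2626062 to 2628271, 1 of 5 pooled regions was matched in both replicates. It lay 3155 bp downstream of the 5' end, in an intron of the neighbouring gene smf-3, with a signal of 35.7 (rank 6863) and replicate ranks of 7689 and 14379. The nearest pooled region upstream of ngn-1 was 1668 bp away at rank 20937, so none lay close to its start.

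The remaining division genes, ham-1 and ces-1, differed in the number of regions. HAM-1 is a winged-helix protein needed for the unequal division of the HSN/PHB neuroblast, and its gene runs from 12542183 to 12545737 on chromosome IV. Of 7 pooled regions at ham-1, 4 were matched in both replicates, as many as at lin-32 outside the IDR list. The strongest was 2639 bp upstream, with a pooled signal of 42.6 (rank 4173) and ranks of 9911 in replicate 1 and 3448 in replicate 2. A region 74 bp upstream of the 5' end was matched too, at low ranks (12363 pooled, 19069 and 18620 in the replicates). It was the only region matched in both replicates within 100 bp of a 5' end among the 10 genes. CES-1, a Snail-family zinc-finger protein that keeps the sisters of NSM neurons alive when overactive, is encoded on chromosome I from 8633897 to 8636169. ces-1 had 2 pooled regions, at ranks 12618 and 29929, and neither had a match within 100 bp in any replicate. Replicate 1 had a region 38 bp upstream of ces-1 at rank 17839, which replicate 2 lacked. It overlapped the pooled region of rank 29929.

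At 7 genes a region outside the IDR list was matched in both replicates, and the window of the strongest at each was searched for the same motifs. CANNTG was in 4 of the 7 windows, those of lin-32, hlh-3, ngn-1 and hlh-14 (35.3% of background windows, 41.2% of IDR windows). AAGTT was in 2, those of ham-1 and hlh-14 (31.7% and 13.2%). The CHR element was in 2, those of pig-1 and ngn-1 (29.2% and 21.8%). CTGCGTCT was in 1 of 7, that of hlh-2 (0.667% and 8.75%). GAGAGA was in 1, that of ham-1 (5.72% and 23.8%), and GGCGGG in 1, that of ngn-1 (2.34% and 7.73%). These counts were not tested.

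**Figure D2:**
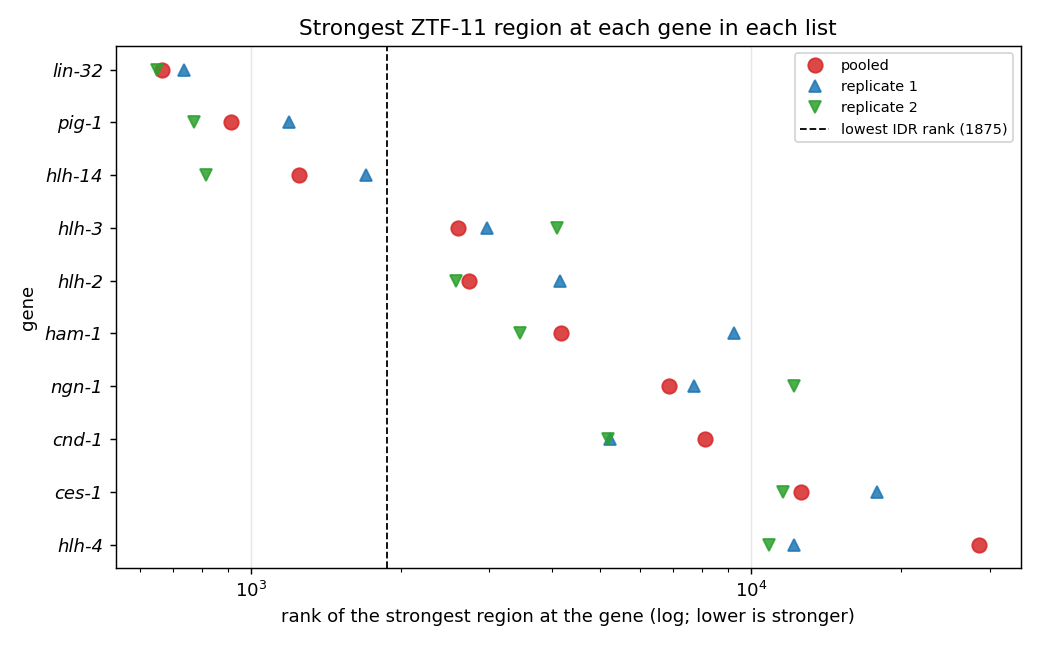
Rank of the strongest region at each gene (log x axis, lower is stronger) in the pooled list (circles) and the replicate lists (triangles), with genes ordered by pooled rank. lin-32, pig-1 and hlh-14 lie left of the lowest IDR rank of 1875 in all 3 lists, and the other 7 genes lie right of it in all 3.

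The strongest pooled region had a median rank of 3455 over the 10 genes (range 666 to 28631), against 8208 over all coding genes. Lists of related genes, described below, had medians of 5873 (other bHLH genes), 2910 (unequal division and cell death) and 2763 (neuroblast lineages and neural fate). Each of the 10 had at least 1 pooled region, as did 92.0% of coding genes, since the pooled list of 30000 regions includes background. By the rule, the 10 genes had a median of 5 pooled regions (2 to 8), against 3 for all coding genes. There were 51 pooled regions at the 10 genes. Their density, 47.3 per 100 kb searched, is not like for like with the 29.9 per 100 kb of the whole genome. Of the 47 outside the IDR list, 13 (27.7%) were matched in both replicates, 27 in 1 and 7 in none; over the whole pooled list outside the IDR peaks the share matched in both was 22.7%. At least 1 such matched region was found at 7 of 10 genes, against 45.9% of coding genes (9170 of 19973), a difference that was not tested. Of the 13, another coding gene had the nearer 5' end for 3, and a non-coding RNA gene had the nearest 5' end of any gene for 6, of which 1 is a piRNA gene.

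**Figure D3:**
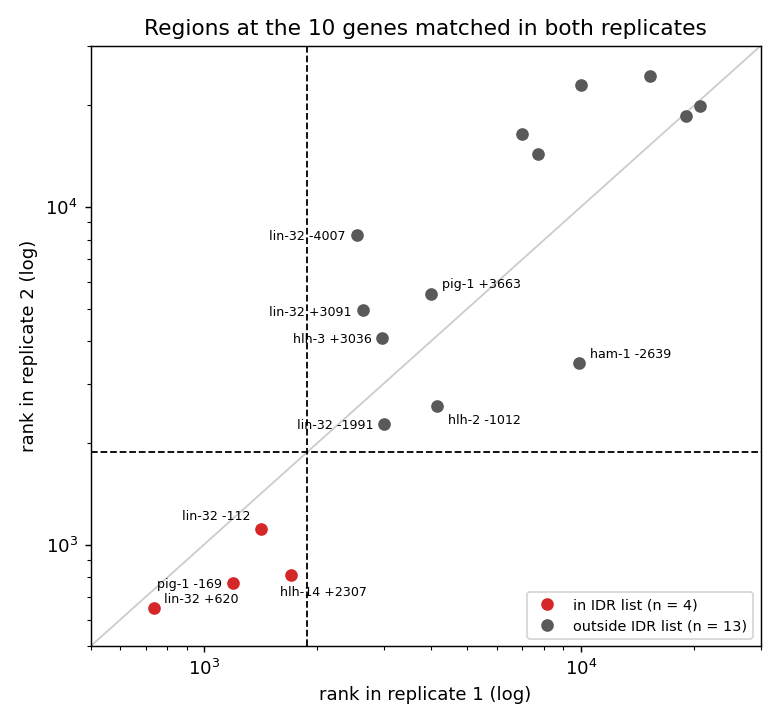
Rank in replicate 1 (log x axis) against rank in replicate 2 (log y axis) for the 17 pooled regions at the 10 genes with a summit within 100 bp in both replicates; red points are in the IDR list and labels give gene and offset in bp. The 4 IDR peaks lie inside the dashed lines at rank 1875 in both replicates, and the 13 others lie outside both lines.

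Genes far from their neighbours had fewer peaks by these counts, and the 10 genes are such genes. The nearest other coding 5' end was at a median of 4904 bp for the 10 genes (2695 to 9402), against 2134 bp for all coding genes. Among the 10526 coding genes whose nearest coding neighbour starts over 2000 bp away, which include all 10, 14.9% had an IDR peak by the rule and 4.44% within 1000 bp. Among the 9447 with a closer one the shares were 24.0% and 12.2%. The part of this spacing in the values of the 10 genes was not tested. The distance to the annotated 5' end can overstate or understate that to the start of transcription where transcripts are trans-spliced.

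The 3 lists of related genes had IDR summits within 1000 bp in 13.8 to 15.2% of their genes, and the interval of each holds the 8.09% of all coding genes. Among 33 other bHLH genes 5 (15.2%, 95% interval 5.11 to 31.9) had an IDR summit within 1000 bp. These were hlh-11 (signal 147), aha-1 (100.5, with the 5' end of C25A1.15 nearer), mdl-1 (86.1), a MAD homolog, hlh-30 (70.4), a TFEB homolog, and mxl-3 (69.1). The aha-1 peak had no match in replicate 1 and the hlh-30 peak none in replicate 2. By the wider rule 10 of the 33 had a peak (30.3%, interval 15.6 to 48.7), against 19.2% of coding genes.

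In the list of other genes of unequal division and cell death, 4 of the 29 found (13.8%, 3.89 to 31.7) had a summit within 1000 bp. These were the small GTPase gene arf-6 (signal 179), the polarity gene par-2 (150.1), dnj-11 (103), which acts upstream of ces-1 in the NSM lineage, and the 14-3-3 gene par-5 (86.4). The summit counted for par-2 was 1 bp from the 5' end of rab-18, and F38A5.2 was nearer than dnj-11. The par-5 peak ranked 888 in replicate 1 and 27938 in replicate 2. Of 21 other regulators of neuroblast lineages and neural fate, 3 (14.3%, 3.05 to 36.3) had one. These were sys-1 (107), a beta-catenin, ztf-11 itself (81.2) and ham-3 (68.9), where gtf-2H3 was nearer. The fusion is made from a transgene, and whether the transgene adds to the signal at ztf-11 was not tested. By the wider rule the share was 37.9% for the division and death list (11 of 29, interval 20.7 to 57.7). It was 42.9% for the neural fate list (9 of 21, interval 21.8 to 66.0), and neither interval holds the 19.2% of all coding genes. The lists were chosen with earlier results of these data known, so this does not show enrichment. Within 5000 bp of the 5' end alone the counts were 10 of 29 (34.5%) and 9 of 21, against 18.8% of all coding genes. No test between lists was made.

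**Figure D4:**
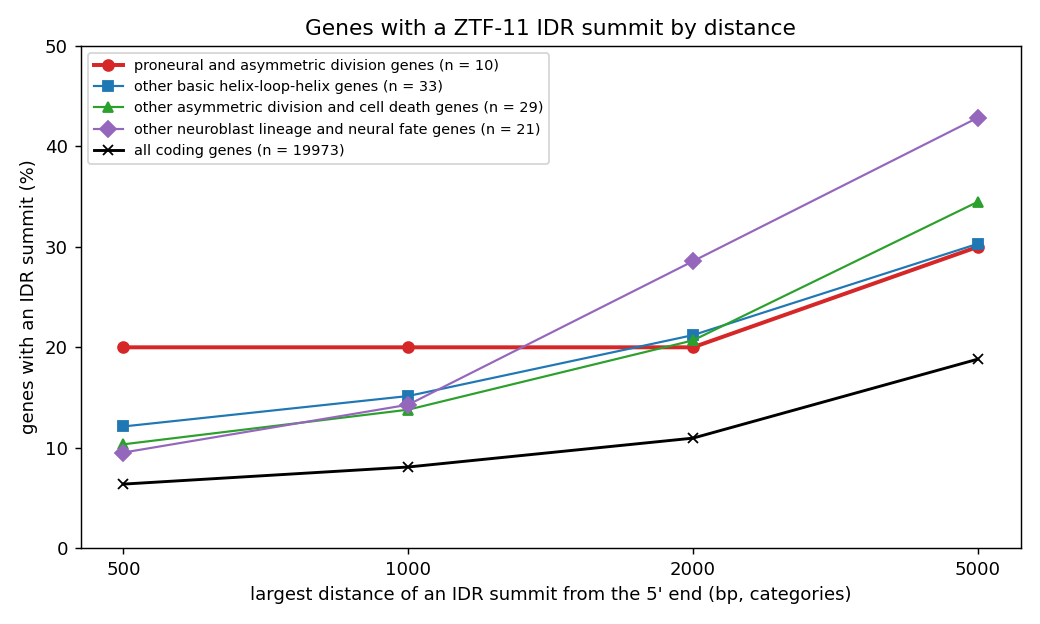
Share of genes with an IDR summit (y axis, percent) within 500, 1000, 2000 and 5000 bp of the 5' end (x axis, categories), for the 10 proneural and asymmetric division genes (red), the 3 lists of related genes and all coding genes (black). The 10 genes stay at 20.0% up to 2000 bp and reach 3 of 10 at 5000 bp, while all coding genes rise to 18.8%.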

How the data were processed

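Regions in 2 replicates of ChIP-seq were used as deposited. The authors called regions on each replicate's ce11 alignments, and on both pooled, with a control alignment, and derived the IDR list from these, per the deposited text files. Not given in the sources used here are the caller, the aligner and the IDR threshold. The authors' signal per region was used to rank and describe regions within a list. Read depth is unknown, so precision rests on the 2 replicates; intervals are exact Clopper-Pearson 95% intervals and cover counting error only. The 4 lists on ce10 and the control were not used here.

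Summits (region start plus offset) were compared with gene 5' ends of Ensembl release 115 (WBcel235, the same assembly as ce11), counted from 1, in Python 3.11.15. Every IDR peak was in the pooled list at rank 1875 or better. Regions matched where summits lay within 100 bp. No region had the same summit and signal in both replicate lists. Counting and matching were checked on simulated data. The text names all 10 genes, the nearest genes of their IDR summits, up to 6 genes with a peak per related list, and, outside the IDR list, up to 3 regions per gene that both replicates matched. Further regions at these genes were named after their values were seen. The genes and lists were chosen with earlier results of these data known, and 2 names of the list on unequal division, arf-1.1 and arf-1.2, were not in the annotation.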

Additional observations from a re-analysis of the deposited data

How the results depend on the processing

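The same 3 genes had a peak by the rule with as many of the strongest regions of either replicate in place of the IDR list (3 genes and 4 summits without replicate 1 and without replicate 2), and lin-32 and pig-1 remained at every distance tried. hlh-14 was lost at 1000 and 2000 bp and with the stronger 50% of IDR peaks, where 2 summits were left, since the weaker lin-32 peak also fell outside them. With a match distance of 50 bp, 3 of the 4 summits were matched in both replicates, and with all annotated genes 3 of 4 had the member's 5' end nearest. Counts of all coding genes moved more: by the rule they were 1866 with 1000 bp, 2375 with 2000 bp, 1580 with the single nearest gene and 2219 with the stronger 50% of peaks, and 966 within 1000 bp with those peaks. Without replicate 1 and without replicate 2 they were 3753 and 3750 by the rule and 1543 and 1582 within 1000 bp. Keeping only coding genes whose nearest coding neighbour starts over 2000 bp away, a setting chosen after seeing the data, gave counts of 1567 and 467. With 100 bp to each side of the summits, AAGTT was in 1 window and the CHR element in 3, and with 25 bp CANNTG was in 1. No paired analysis was possible because there is 1 group. With 10 genes and 2 replicates, a share of peaks like that of all coding genes cannot be told from a higher one.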
